A study of Homo sapiens with 6 samples.

Results

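The transcripts described here are those of the nuclear genes named for respiratory complex I. They were taken from the count table as every row whose symbol is NDUF followed by A, B, C, S, V, AB or AF and a number, with a summed count of at least 60 over the 6 libraries. Of 46 such symbols 45 met the minimum, among 65746 genes in all, and the one left out, NDUFAF8, was listed at 0 in every library. By symbol they were 11 core-named genes (8 NDUFS and 3 NDUFV), 27 accessory genes (13 NDUFA, 1 NDUFAB, 11 NDUFB and 2 NDUFC) and 7 assembly genes (NDUFAF). The cells were SU-DHL-8, an established human line of diffuse large B-cell lymphoma, labelled wild type in all libraries. The groups were 3 libraries of cells given 15 µM beta-sitosterol (beta-ST), a plant sterol close in structure to cholesterol, for 24 h and 3 libraries of cells given its solvent DMSO for 24 h. Nothing in the labels says whether replicates came from separate cultures, so p-values measure the spread between these libraries, which may be technical.

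Complex I, NADH:ubiquinone oxidoreductase, is the entry point of electrons from NADH into the mitochondrial respiratory chain, and it pumps protons while passing those electrons to ubiquinone. Its peripheral arm carries the flavin and the chain of iron-sulfur clusters, its membrane arm holds the proton pumps, and a large set of accessory subunits surrounds and stabilises both. Assembly factors build the arms as separate modules and leave when the complex is finished. The NDUFS and NDUFV symbols mark subunits first found in the iron-sulfur and flavoprotein fractions, and they do not all mark catalysis. NDUFS4, NDUFS5, NDUFS6 and NDUFV3 are accessory subunits, so 7 of the 11 core-named genes belong to the catalytic core, among them NDUFV1, NDUFV2, NDUFS1 and NDUFS8. Below, catalytic core means these 7 nuclear genes alone, without the mitochondrially encoded subunits of the core. NDUFA4, although named for complex I, is counted as a subunit of complex IV.

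Library totals were 29359951, 26453101 and 27839421 counts in beta-ST replicates 1 to 3, and 33536498, 31314104 and 35565163 in DMSO replicates 1 to 3. The beta-ST libraries were closely alike, while DMSO replicate 2 stood apart. Its correlations of log2 CPM across genes with the other DMSO libraries were 0.982 and 0.972, against 0.991 between those 2 and 0.994 for each pair of beta-ST libraries. Results are therefore also given without it. All 9 B cell markers looked for were expressed, with summed levels of 2415 to 2582 CPM in beta-ST and 1889 to 2611 CPM in DMSO libraries. The sum hides moves in both directions. In the edgeR fit described below 4 of the 9 were called higher and 1 lower, beside 19.0% and 21.8% of all genes. MS4A1 averaged 18.3 CPM in beta-ST and 3.92 CPM in DMSO libraries, and PAX5 averaged 208 and 660 CPM. Among 7 T cell markers CD3E, CD3G and CD2 were listed at 0, and the list summed to 1.90 to 3.05 CPM in beta-ST and 1.20 to 1.57 CPM in DMSO libraries, nearly all of it CD247. In such bulk samples, less RNA per cell and fewer cells of a kind cannot be told apart.

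Complex I transcripts were mostly higher after beta-sitosterol. Accessory genes, which make up 27 of the 45, took 17 of the 23 calls. Of these, 9 fell in the NDUFB family of the membrane arm. Of the 7 NDUFAF assembly genes 1 was called. Assembly factors named otherwise, counted further below, had 6 of 12 called higher and 1 lower. All 45 passed the expression filter of the fit. In edgeR's quasi-likelihood test with Benjamini-Hochberg adjustment over the 11525 genes tested, 23 of the 45 were called higher and 0 lower at an adjusted p below 0.05. Over all genes tested, 19.0% were called higher and 21.8% lower. The count of 0 lower also held at an unadjusted p below 0.05, with DESeq2 and with limma-voom. The median log2 fold change was 0.75 over the 45 genes, beside −0.04 over all genes tested. A positive value was found for 42 genes and a negative one for 3, NDUFB10, NDUFB7 and NDUFV3. A rise of 2-fold or more was called in 17, a limit at which the share over all genes was not counted. In CPM, which are library-scaled counts, all 3 beta-ST libraries lay above all 3 DMSO libraries for 33 of the 45 genes and below them for 0, beside 27.0% and 29.1% of all genes tested, and the groups overlapped for the remaining 12. Summed over the 45 genes, CPM came to 4206, 4349 and 4449 in beta-ST replicates 1 to 3 and to 2704, 2004 and 2803 in DMSO replicates 1 to 3.

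**Figure D1:**
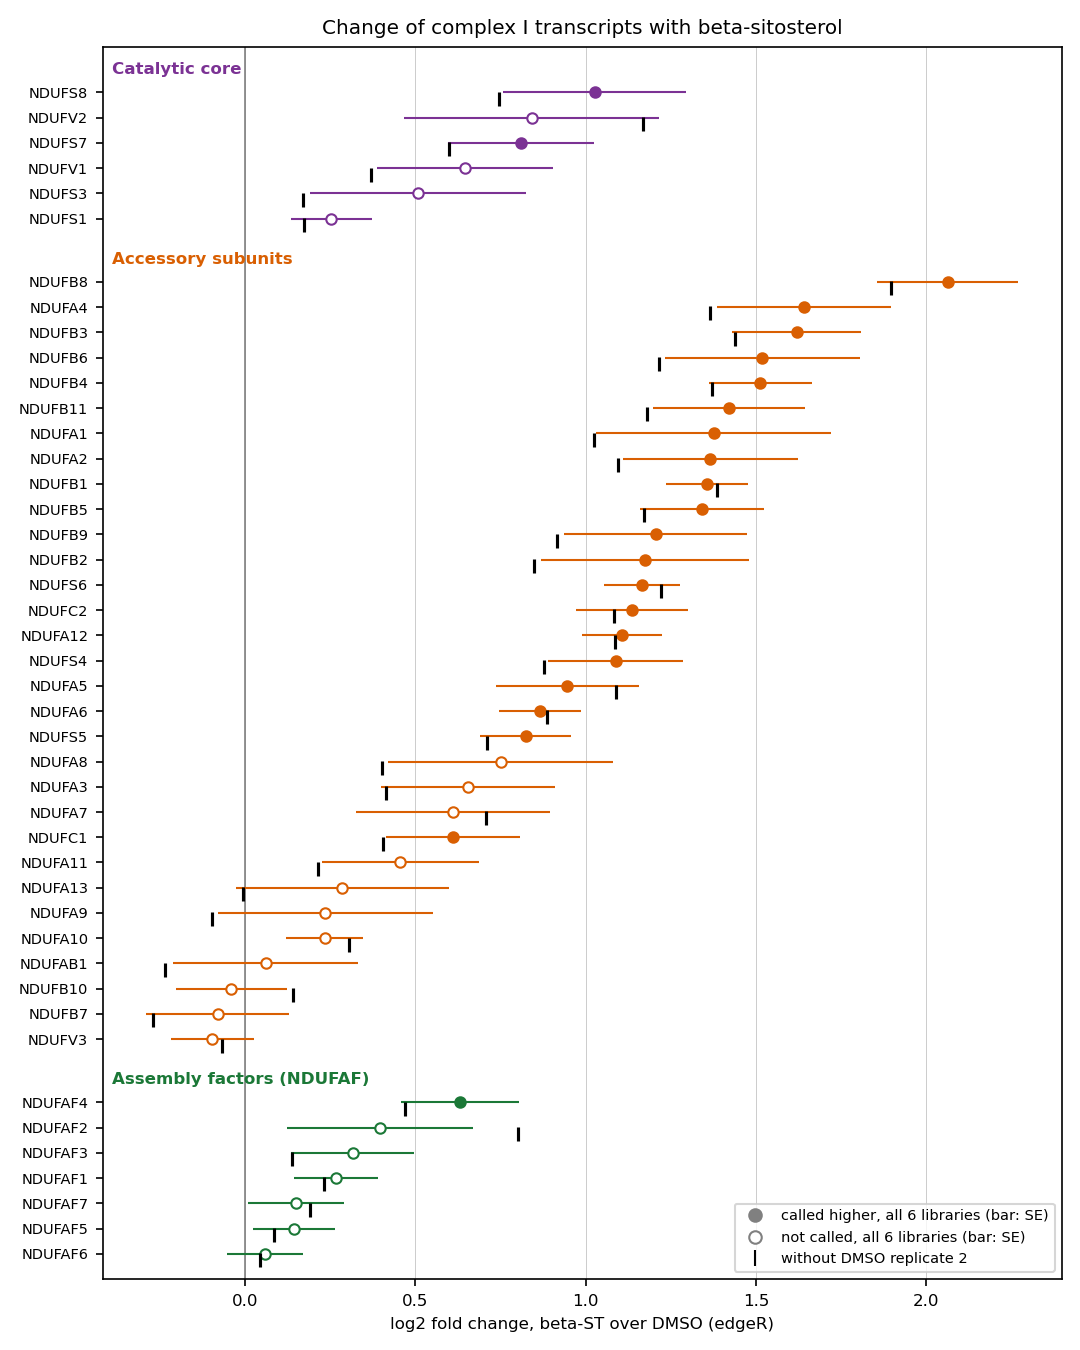
Change of each complex I transcript. Each row is a gene, grouped by function, and the horizontal axis is the log2 fold change of beta-ST over DMSO from edgeR, with bars for the standard error. The rows are 44 of the 45 genes, filled circles are the 23 called higher and open circles the others, with the value without DMSO replicate 2 marked beside each. Most accessory genes lie to the right of 0.5, while the assembly genes lie at or below 0.63 and NDUFB10, NDUFB7 and NDUFV3 lie just below 0.

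The calls were spread over the roles as follows, beside 19.0% of all genes tested called higher. Of the 11 core-named genes 5 were called higher, with a median log2 fold change of 0.81. Of the 27 accessory genes 17 were called higher, with a median of 1.11. Of the 7 assembly genes 1 was called higher, with a median of 0.27. Sorting the 4 misnamed subunits by function left 2 of 7 catalytic genes called higher, with a median of 0.65, and 20 of 31 accessory subunits, with a median of 1.09. Leaving NDUFA4 out gave 19 of 30 accessory subunits. Whether the classes differ from each other was not tested.

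Of the catalytic core, the called genes were NDUFS8 and NDUFS7, which hold the last iron-sulfur clusters before the ubiquinone site. NDUFS8 stood at 124, 121 and 128 CPM in beta-ST libraries and at 64.1, 35.3 and 84.0 CPM in DMSO libraries. All beta-ST values were above all DMSO values, and the log2 fold change was 1.03 (SE 0.27, edgeR adjusted p = 0.0162). NDUFS7 stood at 30.5, 28.4 and 30.7 CPM in beta-ST libraries and at 17.2, 11.8 and 22.1 CPM in DMSO libraries, a log2 change of 0.81 (SE 0.21, edgeR adjusted p = 0.0168). Its groups did not overlap either. For each of these genes the call was lost when DMSO replicate 1, beta-ST replicate 1 or beta-ST replicate 3 was left out, with adjusted p reaching 0.059 for NDUFS8 and 0.062 for NDUFS7. Of the NDUFS7 exon bases 49.1% overlap transcripts annotated on the opposite strand.

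The flavoprotein pair that takes up NADH was higher in beta-ST without passing the test. NDUFV1, which binds NADH and the flavin, had 380.5, 366 and 394 CPM in beta-ST libraries and 259.7, 142 and 326 CPM in DMSO libraries. The groups did not overlap, and the log2 fold change was 0.65 (SE 0.26, edgeR adjusted p = 0.076). NDUFV2, its iron-sulfur partner, had 2.0, 1.55 and 1.67 CPM in beta-ST libraries and 1.09, 1.38 and 0.462 CPM in DMSO libraries, a log2 change of 0.84 (SE 0.37, edgeR adjusted p = 0.104). Only 243 reads in all were assigned to NDUFV2, fewer than the 562 of its processed copy NDUFV2P1, so its level is uncertain. NDUFV1 was also called without DMSO replicate 3 (0.96, adjusted p = 0.0143). Both genes were called higher once DMSO replicate 2 was left out, NDUFV1 with a log2 change of 0.37 (edgeR adjusted p = 0.00424) and NDUFV2 with 1.17 (adjusted p = 0.0105).

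NDUFS1 and NDUFS3 of the catalytic core differed less. NDUFS1, which carries most of the iron-sulfur clusters of the NADH-oxidising module, had 176, 179.5 and 178 CPM in beta-ST libraries and 166, 133 and 149 CPM in DMSO libraries (log2 fold change 0.25, SE 0.12, edgeR adjusted p = 0.119). NDUFS3, a subunit of the ubiquinone-binding module, had 119.6, 122 and 130.2 CPM in beta-ST libraries and 105, 42.0 and 115 CPM in DMSO libraries (0.51, SE 0.32, adjusted p = 0.231). The groups did not overlap for either gene, and neither passed the test. For NDUFS3, DMSO replicates 1 and 3 lay just below the beta-ST libraries, and the 5 other libraries gave a log2 change of 0.17 (adjusted p = 0.118).

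Of the 4 accessory subunits that carry an S or V in their symbol, NDUFS4, NDUFS5 and NDUFS6 were called higher. NDUFS6, a zinc-binding subunit added late in assembly, had 254, 249.5 and 262 CPM in beta-ST libraries and 113, 123 and 105 CPM in DMSO libraries. Neither group spread widely, and the log2 fold change was 1.17 (SE 0.11, edgeR adjusted p = 0.000236). NDUFS5, a cysteine-rich subunit on the intermembrane space side, had 269, 295 and 300.4 CPM in beta-ST libraries and 169, 137 and 182 CPM in DMSO libraries, a log2 change of 0.82 (SE 0.13, edgeR adjusted p = 0.00194). NDUFS4, a subunit often mutated in Leigh syndrome, averaged 38.8 ± 1.09 CPM in beta-ST and 18.2 ± 4.83 CPM in DMSO libraries (SD, n = 3 each), a log2 change of 1.09 (SE 0.20, edgeR adjusted p = 0.00331). NDUFV3, a small subunit of the flavoprotein module, averaged 21.0 ± 1.05 CPM in beta-ST and 22.4 ± 1.16 CPM in DMSO libraries and was not called (log2 fold change −0.10, SE 0.12, adjusted p = 0.559).

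Per unit of length, NDUFS5 was the most abundant of the 45 transcripts in both groups, at 1016 TPM in beta-ST and 715 TPM in DMSO libraries (means, n = 3 each). NDUFS6 followed at 519 TPM in beta-ST and 279 TPM in DMSO libraries. NDUFA1, a short single-pass membrane subunit, averaged 388 TPM in beta-ST and 196 TPM in DMSO libraries, with a DMSO range that reached down to 60.4 TPM in replicate 2 against 269 and 258 TPM in replicates 1 and 3. Over all 6 libraries these 3 had the highest mean TPM, while NDUFA4, at 401 TPM in beta-ST and 166 TPM in DMSO libraries, was above NDUFA1 in beta-ST libraries. The lowest was NDUFV2, at 1.18 TPM in beta-ST and 0.762 TPM in DMSO libraries, with the uncertainty given above. The rows given filled 39.5% of the TPM scale in DMSO replicate 2, against 64.6% and 69.2% in DMSO replicates 1 and 3. TPM are thus not on a like scale across libraries, which also touches the DMSO means. In CPM, NDUFA1 had 13.6 in DMSO replicate 2 against 38.6 and 37.1 in DMSO replicates 1 and 3.

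**Figure D2:**
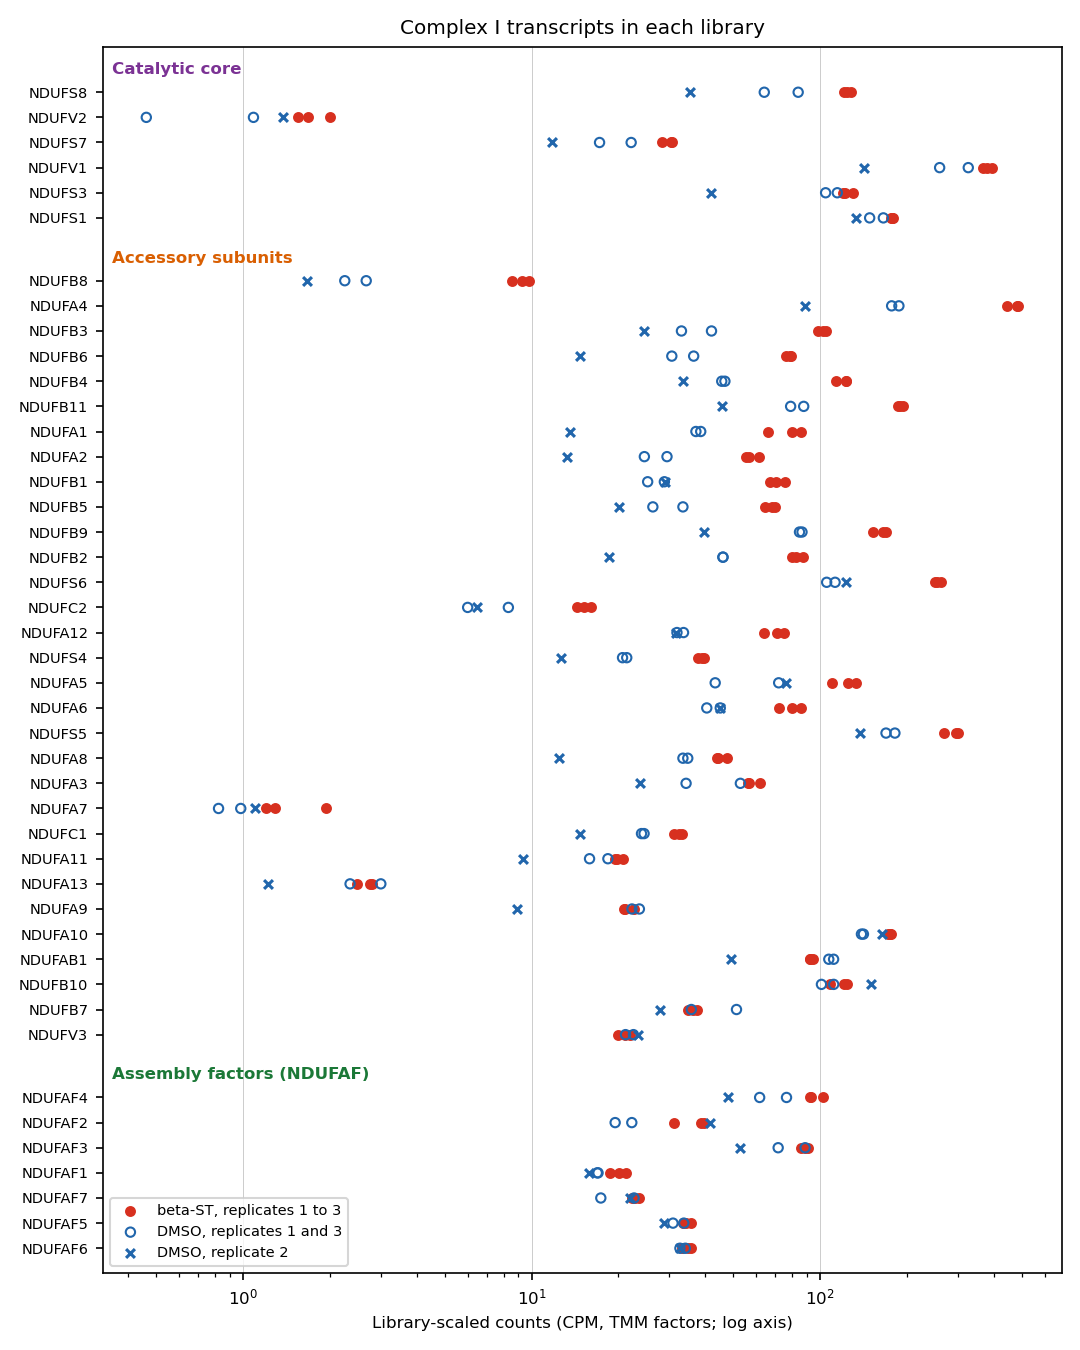
Level of each complex I transcript in every library. The horizontal axis is CPM on a log scale, filled red circles are the 3 beta-ST libraries, open blue circles DMSO replicates 1 and 3, and blue crosses DMSO replicate 2. Red circles cluster tightly and lie to the right of the blue marks for 33 of the 44 genes drawn, and the cross is the leftmost DMSO mark in most rows.

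The NDUFB family, subunits of the membrane arm, had the most calls, with 9 of 11 higher and a median log2 fold change of 1.36. NDUFB3 (chromosome 2, 201071433 to 201085750, plus strand, GENCODE v29 on GRCh38) had 98.6, 102 and 105 CPM in beta-ST libraries and 42.0, 24.5 and 33.1 CPM in DMSO libraries. It was 3.07-fold higher (log2 fold change 1.62, SE 0.19, edgeR adjusted p = 0.000492). NDUFB4 (chromosome 3, 120596309 to 120602500, plus strand) had 114, 123 and 123 CPM in beta-ST libraries and 45.6, 33.5 and 46.8 CPM in DMSO libraries, a log2 change of 1.51 (SE 0.15, edgeR adjusted p = 0.000268). Both are small single-pass membrane subunits, and in both the beta-ST libraries lay far above every DMSO library.

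NDUFB6 had 78.9, 79.4 and 76.2 CPM in beta-ST libraries and 36.5, 14.7 and 30.6 CPM in DMSO libraries, a log2 change of 1.52 (SE 0.29, edgeR adjusted p = 0.00385). NDUFB11, encoded on the X chromosome and sharing 44.9% of its exon bases with RBM10 on the opposite strand, had 189, 186 and 194 CPM in beta-ST libraries and 79.1, 45.5 and 87.7 CPM in DMSO libraries, a log2 change of 1.42 (SE 0.22, edgeR adjusted p = 0.00171). Their groups lay far apart, with DMSO replicate 2 the lowest of all 6 libraries in each. The other called members of the family were NDUFB1 (1.36), NDUFB5 (1.34), NDUFB9 (1.21) and NDUFB2 (1.17), all in log2 units. NDUFB2 was lost when beta-ST replicate 3 was left out (adjusted p = 0.050). NDUFB10 and NDUFB7, cysteine-rich subunits on the intermembrane space side, were not called. NDUFB10 averaged 118 ± 8.28 CPM in beta-ST and 121 ± 25.9 CPM in DMSO libraries (log2 fold change −0.04, SE 0.16, edgeR adjusted p = 0.863). NDUFB7 averaged 36.3 ± 1.38 CPM in beta-ST and 38.3 ± 12.0 CPM in DMSO libraries (−0.08, SE 0.21, adjusted p = 0.783).

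The row named NDUFB8 had the highest log2 fold change of the 45, at 2.06 (SE 0.21, edgeR adjusted p = 0.000265), with 8.55, 9.23 and 9.82 CPM in beta-ST libraries and 2.67, 1.66 and 2.25 CPM in DMSO libraries. Its identifier, ENSG00000255339, is not that of NDUFB8 in GENCODE v29. It belongs there to AL133352.1 (chromosome 10, 100505628 to 100529881, minus strand), a locus that shares 100% of its exon bases with SEC31B, NDUFB8 or HIF1AN. The value is therefore that of this row and may not be that of NDUFB8 itself. More generally, 25 of the 45 genes share exon bases with another gene on either strand and 13 with one on the same strand, and the 5 with the lowest mean CPM (NDUFA7, NDUFV2, NDUFA13, NDUFB8 and NDUFC2) are all among them. The sources used here do not give how reads in such overlaps were assigned. Without these 13 genes, 18 of the other 32 were called higher.

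Of the 2 NDUFC genes, which encode small membrane-arm subunits, both were called higher, NDUFC2 with a log2 change of 1.14 and NDUFC1 with 0.61. NDUFC1 averaged 32.3 ± 1.04 CPM in beta-ST and 21.1 ± 5.50 CPM in DMSO libraries (edgeR adjusted p = 0.0361), and it lost its call when any beta-ST replicate was left out (adjusted p up to 0.11).

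Of the 13 NDUFA genes 6 were called higher, with a median log2 fold change of 0.75. NDUFA4, the complex IV subunit, had 444, 483 and 487 CPM in beta-ST libraries and 188, 88.9 and 177 CPM in DMSO libraries, a 3.12-fold difference (log2 fold change 1.64, SE 0.26, edgeR adjusted p = 0.00161). NDUFA1 had 66.1, 79.6 and 86.0 CPM in beta-ST libraries and 38.6, 13.6 and 37.1 CPM in DMSO libraries (1.38, SE 0.35, adjusted p = 0.0135). NDUFA2, a subunit of the peripheral arm with a thioredoxin-like fold, had 55.5, 56.9 and 61.4 CPM in beta-ST libraries and 24.6, 13.3 and 29.5 CPM in DMSO libraries (1.37, SE 0.26, adjusted p = 0.00384). In all 3 the groups were well apart. Of the NDUFA1 exon bases 44.5% overlap RNF113A on the opposite strand, and the sources used here do not say whether the libraries kept strand.

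The other called NDUFA genes were NDUFA12 (log2 fold change 1.11), NDUFA5 (0.95) and NDUFA6 (0.87), all subunits of the peripheral arm. Their groups did not overlap, and NDUFA12 was even across DMSO libraries, at 31.9, 31.7 and 33.6 CPM, against 64.0, 70.6 and 74.8 CPM in beta-ST libraries. The uncalled ones were NDUFA8 (0.75), NDUFA3 (0.66), NDUFA7 (0.61), NDUFA11 (0.46), NDUFA13 (0.29), NDUFA9 (0.24) and NDUFA10 (0.23). Of these, NDUFA8, NDUFA3 and NDUFA10 were called higher without DMSO replicate 2, and NDUFA3 and NDUFA11 without DMSO replicate 3.

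NDUFA8, another cysteine-rich subunit, had 44.0, 44.3 and 47.5 CPM in beta-ST libraries and 33.5, 12.5 and 34.8 CPM in DMSO libraries. Its log2 fold change of 0.75 (edgeR adjusted p = 0.101) became 0.40 (adjusted p = 0.00449) without DMSO replicate 2, smaller in size but past the threshold. NDUFA3 had 56.4, 56.8 and 61.7 CPM in beta-ST libraries and 34.3, 23.7 and 52.9 CPM in DMSO libraries, and its value of 0.66 (adjusted p = 0.070) became 0.41 (adjusted p = 0.0251). NDUFA10, a subunit with a nucleoside kinase fold, had 172, 174 and 176 CPM in beta-ST libraries and 139, 163 and 141 CPM in DMSO libraries. Here DMSO replicate 2 was the highest of its group, and the log2 fold change was 0.31 without it (adjusted p = 0.00536), beside 0.23 with it (adjusted p = 0.129).

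NDUFAB1, the mitochondrial acyl carrier protein, which also serves lipoic acid and iron-sulfur cluster synthesis, was unlike most of the list. It had 94.6, 92.6 and 92.3 CPM in beta-ST libraries and 107, 49.2 and 111 CPM in DMSO libraries. The beta-ST values lay between DMSO replicate 2 and the other DMSO libraries, and the log2 fold change was 0.06 (SE 0.27, edgeR adjusted p = 0.872). Without DMSO replicate 2 it was −0.24 and called lower (adjusted p = 0.0309), so the direction for this gene turned on that library.

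The NDUFAF assembly factors were closer to 0. NDUFAF4, which acts with NDUFAF3 on the early ubiquinone-binding module, had 92.6, 103 and 92.8 CPM in beta-ST libraries and 76.5, 47.8 and 61.7 CPM in DMSO libraries. It was the 1 assembly gene called, with a log2 change of 0.63 (SE 0.17, edgeR adjusted p = 0.0197), and the call was lost when any beta-ST replicate was left out (adjusted p up to 0.081). NDUFAF3 had 89.0, 85.8 and 90.7 CPM in beta-ST libraries and 71.6, 52.9 and 88.8 CPM in DMSO libraries (0.32, SE 0.18, adjusted p = 0.194). NDUFAF3 overlapped between groups, and its log2 fold change was 0.14 without DMSO replicate 2 and 0.55 without DMSO replicate 3, where it was called higher (adjusted p = 0.018). NDUFAF2, which binds a late intermediate, had 31.2, 38.7 and 39.6 CPM in beta-ST libraries and 22.3, 41.5 and 19.5 CPM in DMSO libraries (0.40, SE 0.27, adjusted p = 0.276). DMSO replicate 2 was the highest of all 6 libraries for it, and without that library the value was 0.80 (adjusted p = 0.000112).

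NDUFAF1, part of the complex that assembles the membrane arm, had 18.7, 20.1 and 21.2 CPM in beta-ST libraries and 17.0, 15.9 and 16.9 CPM in DMSO libraries (log2 fold change 0.27, SE 0.12, edgeR adjusted p = 0.116). NDUFAF7, a methyltransferase of early assembly, had 22.3, 23.6 and 22.9 CPM in beta-ST libraries and 22.7, 22.0 and 17.4 CPM in DMSO libraries (0.15, SE 0.14, adjusted p = 0.422). NDUFAF5, which hydroxylates NDUFS7, had 34.3, 35.6 and 33.4 CPM in beta-ST libraries and 33.7, 28.8 and 30.9 CPM in DMSO libraries (0.14, SE 0.12, adjusted p = 0.364). The groups were separate for NDUFAF1 and overlapped for NDUFAF7 and NDUFAF5. NDUFAF6, needed for early assembly, had 33.3, 35.6 and 34.8 CPM in beta-ST libraries and 34.1, 32.8 and 32.7 CPM in DMSO libraries (0.06, SE 0.11, adjusted p = 0.697), with overlapping groups. None of these 4 passed the test, which does not show that they were equal.

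Promoters of genes with called and uncalled transcripts were read for short motifs of factors tied to mitochondrial genes. The sequences below, from RefSeq on GRCh38.p14, run 5′ to 3′ on the gene's strand from 250 bases before the annotated start to 50 after it. They are shown because NDUFB4 and NDUFS6 were called higher and hold the core of an NRF1 site, NDUFB3 was called higher and holds neither that core nor the ETS core, and NDUFS1 was not called and holds an ETS core. The positions are chr3:120596086-120596385 on the plus strand for NDUFB4, chr5:1801157-1801456 on the plus strand for NDUFS6, chr2:201071751-201072050 on the plus strand for NDUFB3 and chr2:206159395-206159694 on the minus strand for NDUFS1. Capitals mark the NRF1 core GCATGCG on either strand in the NDUFB4 and NDUFS6 lines and the ETS core CCGGAAG, read on the opposite strand, in the NDUFS1 line.
NDUFB4: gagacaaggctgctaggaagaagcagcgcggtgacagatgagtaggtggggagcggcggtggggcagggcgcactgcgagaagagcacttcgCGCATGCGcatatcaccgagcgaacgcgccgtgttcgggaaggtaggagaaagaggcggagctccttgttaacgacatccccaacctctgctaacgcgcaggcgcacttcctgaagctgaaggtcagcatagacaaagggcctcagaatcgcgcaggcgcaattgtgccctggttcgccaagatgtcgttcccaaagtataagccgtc
NDUFS6: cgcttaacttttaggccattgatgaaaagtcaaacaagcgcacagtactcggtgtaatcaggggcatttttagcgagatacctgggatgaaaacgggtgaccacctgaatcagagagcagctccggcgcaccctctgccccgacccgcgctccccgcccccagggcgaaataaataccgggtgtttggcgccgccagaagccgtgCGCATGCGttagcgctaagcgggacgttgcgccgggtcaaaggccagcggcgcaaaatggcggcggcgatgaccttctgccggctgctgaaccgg
NDUFB3: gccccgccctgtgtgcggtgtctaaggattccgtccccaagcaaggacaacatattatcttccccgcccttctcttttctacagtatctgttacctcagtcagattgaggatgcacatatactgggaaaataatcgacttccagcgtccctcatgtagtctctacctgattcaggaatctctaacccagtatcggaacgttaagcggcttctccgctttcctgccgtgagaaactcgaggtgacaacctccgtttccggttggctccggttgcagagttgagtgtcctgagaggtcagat
NDUFS1: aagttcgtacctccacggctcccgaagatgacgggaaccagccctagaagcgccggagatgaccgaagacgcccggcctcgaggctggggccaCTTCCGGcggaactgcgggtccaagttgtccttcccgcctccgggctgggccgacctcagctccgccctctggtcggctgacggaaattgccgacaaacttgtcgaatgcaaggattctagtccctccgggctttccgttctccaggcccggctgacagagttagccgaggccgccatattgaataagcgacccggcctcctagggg

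In NDUFB4 and NDUFS6 the NRF1 core reads on both strands from 2 overlapping matches, which start 158 and 157 bases before the annotated start in NDUFB4 and 45 and 44 bases before it in NDUFS6. Of the 38 complex I genes matched to a promoter, 7 (18.4%) held the core GCATGCG or its complement, beside 6.82% of the 9086 tested genes with a promoter of the same length. By call it was 5 of 18 genes called higher and 2 of 20 not called, and the CCAAT letters (7 and 4), the SP/KLF core (6 and 4) and the YY1 core (3 and 2) were also found in more called than uncalled genes, whereas the ETS core was found in 2 called and 4 uncalled. The ETS core CCGGAAG was found in 15.8% of the complex I promoters and 19.8% of all, the YY1 core GATGGCG in 13.2% and 7.96%, the SP/KLF core GGGCGGG in 26.3% and 53.2%, and the CCAAT letters in 28.9% and 37.4%. All were searched on both strands, and the motifs were looked for whether or not they overlapped each other. A match is a description of letters and not a bound site.

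The transcript of NRF1, the factor whose core was searched, was lower in beta-ST libraries, at 28.4, 25.8 and 27.9 CPM against 47.8, 40.4 and 50.2 CPM in DMSO libraries (log2 fold change −0.75, SE 0.13, edgeR adjusted p = 0.00257). Among 10 tested regulators of mitochondrial biogenesis 4 fell and 1 rose, beside 21.8% lower and 19.0% higher over all genes tested. PPRC1, a coactivator of the PGC-1 family, fell the most, to 111 ± 3.58 CPM in beta-ST against 246 ± 61.4 CPM in DMSO libraries (log2 fold change −1.14, edgeR adjusted p = 0.00156). YY1 fell by 0.48 and PPARGC1B by 0.55 on the log2 scale. TFAM, which packages mitochondrial DNA, rose by 0.51. The median over the 10 was −0.31. A relation between these regulators and the complex I transcripts was not tested.

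DMSO replicate 2 carried much of the spread among the controls. It was the lowest DMSO library for 32 of the 45 genes, beside 41.5% of all genes tested. By family these were 9 of 13 NDUFA, 9 of 11 NDUFB, 7 of 8 NDUFS, 4 of 7 NDUFAF, 1 of 2 NDUFC, 1 of 3 NDUFV and NDUFAB1. Its CPM over the mean of DMSO replicates 1 and 3 had a median of 0.674 over the 45 genes, beside 0.997 over all genes tested. The ratio went from 0.358 in NDUFA1 to 1.99 in NDUFAF2. It was below 0.6 in 17 of the 45, beside 13.1% of all genes tested. Averaged over the 45 genes on the log2 scale and set against the mean of the DMSO libraries, the libraries stood at 0.78, 0.81 and 0.84 in beta-ST replicates 1 to 3 and at 0.17, −0.32 and 0.16 in DMSO replicates 1 to 3.

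**Figure D3:**
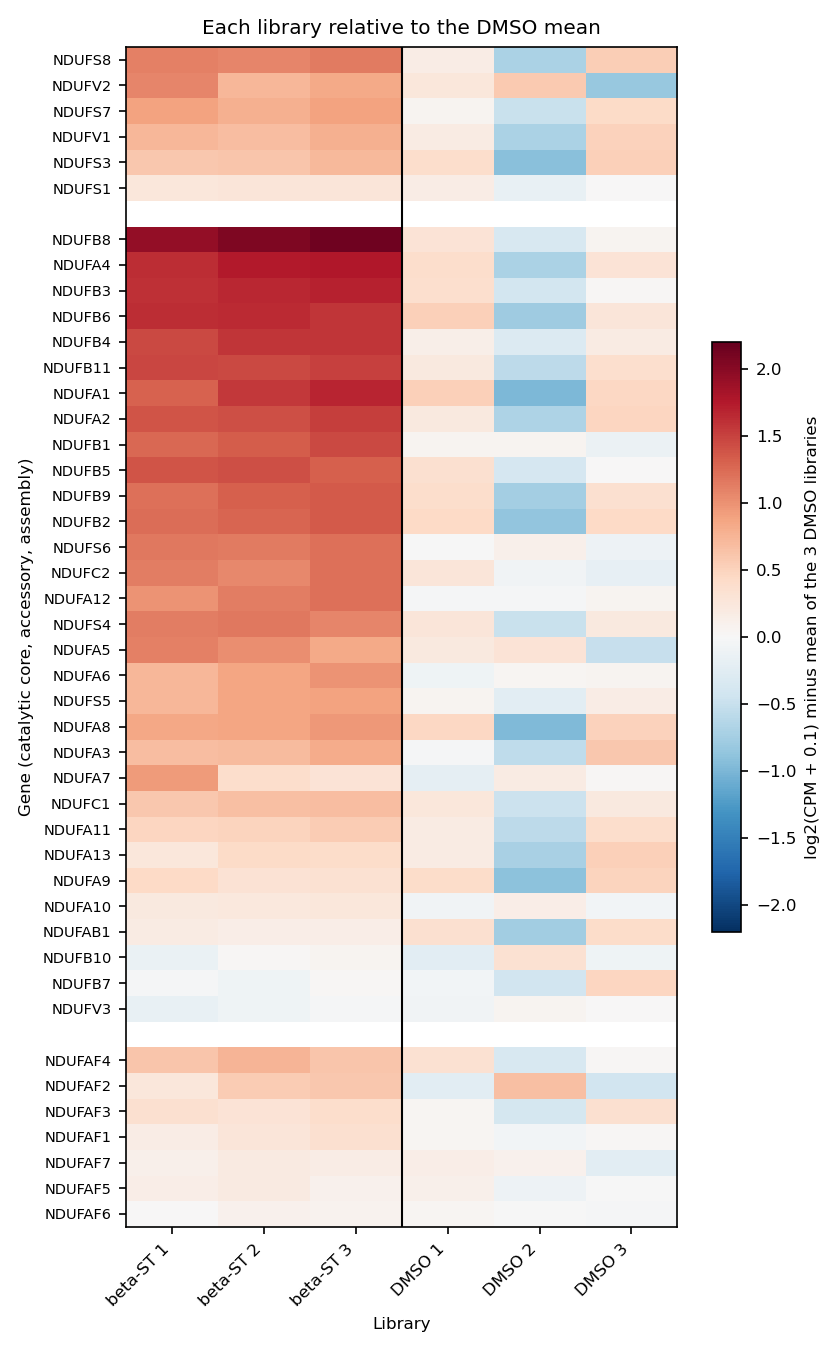
Level of each complex I transcript in every library relative to its DMSO mean. Columns are the 3 beta-ST libraries followed by the 3 DMSO libraries, rows are 44 of the 45 genes by function, and colour is the difference in log2(CPM + 0.1) from the mean of the DMSO libraries, red above and blue below. The beta-ST columns look alike, and the column of DMSO replicate 2 is blue in most rows, with NDUFAF2 and NDUFV2 among the red exceptions.

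Without DMSO replicate 2 the median changes were smaller, more so within each role than over the list, and the calls were more numerous. The edgeR fit of the other 5 libraries called 29 of the 45 genes higher and 1 lower, beside 26.4% and 30.3% of the 11724 genes then tested. All 23 genes called with 6 libraries were called again, and NDUFV1, NDUFV2, NDUFA3, NDUFA8, NDUFA10 and NDUFAF2 were added. By role the counts became 7 of 11 core-named genes, 20 of 27 accessory genes and 2 of 7 assembly genes, and 4 of 7 genes of the catalytic core. The median log2 fold change was 0.71 over the 45 genes, beside 0.75 with 6 libraries. It was 0.60 for core-named genes (0.81 with 6 libraries), 0.92 for accessory genes (1.11) and 0.19 for assembly genes (0.27). For the catalytic core it was 0.37, beside 0.65 with 6 libraries. NDUFB3 then stood at 1.44, NDUFB4 at 1.37, NDUFA4 at 1.36 and NDUFS6 at 1.22, while NDUFA13 (−0.00) and NDUFA9 (−0.10) lost their positive sign.

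Gene length, recovered from counts and TPM, moved with the change over all genes. It was scaled to the exon length of each gene in GENCODE v29 and may differ from the length of the mRNA. Spearman's rho of recovered length with GENCODE exon length was 0.77. Across the 11525 genes tested, Spearman's rho of recovered length and log2 fold change was −0.23. Genes of shorter recovered length thus tended to be higher in beta-ST (genes are not independent replicates). The 45 complex I genes were short on this scale, with a median of 2179 nt beside 5011 nt over all genes. By symbol, the medians were 1863 nt for accessory, 2427 nt for assembly and 3807 nt for core-named genes. For the catalytic core, sorted by function, the median was 6229 nt. In the shortest of 8 length classes with equal numbers of genes, 31.0% of all genes were called higher with a median log2 fold change of 0.27, and 9 of the 15 complex I genes there were called higher with a median of 0.82. In the next class 26.2% of all genes and 8 of 12 complex I genes were called higher, with medians of 0.11 and 1.12.

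**Figure D4:**
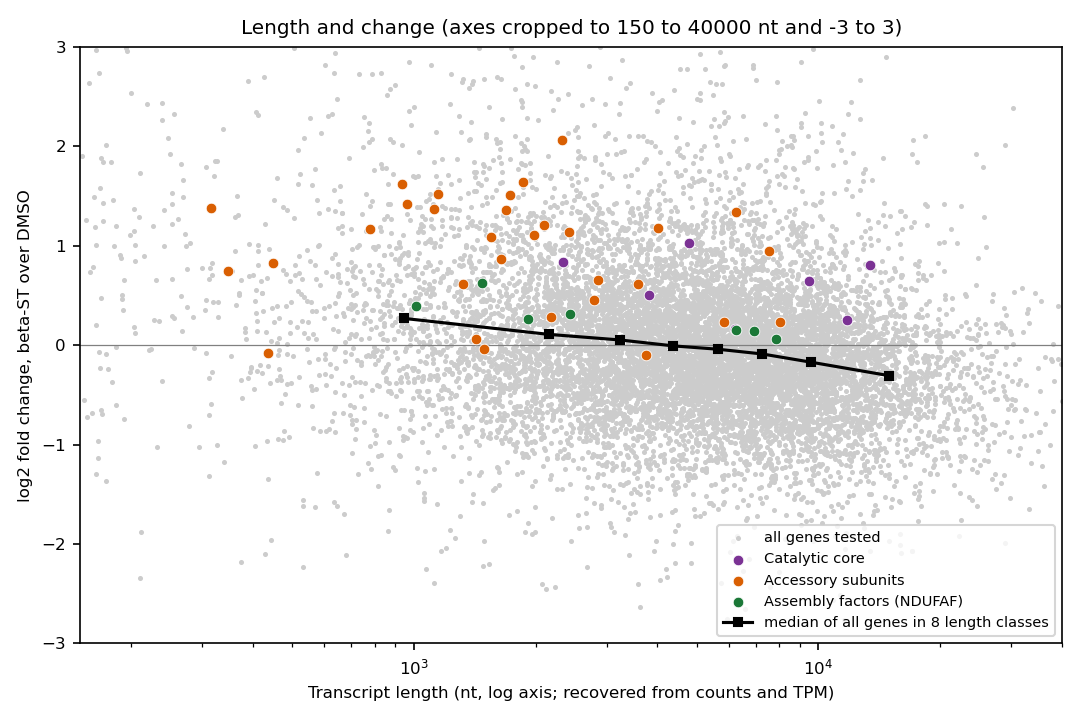
Length and change. The horizontal axis is length in nt on a log scale, recovered from counts and TPM, and the vertical axis the log2 fold change of beta-ST over DMSO. Grey points are all genes tested, coloured points the complex I genes by role, and black squares the median of all genes in 8 length classes. The black line falls with length, from 0.27 in the shortest class to −0.31 in the longest, and most coloured points lie above it.

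When the trend with length was removed within each library before the fit, edgeR called 26 of the 45 genes higher and 1 lower, beside 19.7% and 20.8% of all genes. The median log2 fold change was 0.57, beside −0.01 over all genes. NDUFV1 (0.79, adjusted p = 0.0441), NDUFS1 (0.47, adjusted p = 0.0181) and NDUFA10 (0.35, adjusted p = 0.0356) were then called higher, and the very short NDUFB7 was called lower (−0.48, adjusted p = 0.0283). The catalytic core then counted 4 of 7. NDUFB3 kept a log2 change of 1.34, NDUFB4 of 1.34 and NDUFA4 of 1.49, while NDUFS6 came to 0.81 and NDUFS5 to 0.40.

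The authors' TPM gave fewer calls. On the scale of log2(TPM + 1), limma called 9 of the 45 higher and 0 lower, beside 6.19% and 19.3% of all genes tested. The median over all genes lay at −0.19 on that scale and the median of the complex I genes at 0.45. The 9 were NDUFB1, NDUFB3, NDUFB4, NDUFB5, the row named NDUFB8, NDUFC2, NDUFA4, NDUFA12 and NDUFS6. The rows given in the TPM table made up 57.8%, 57.0% and 57.6% of the whole TPM scale in beta-ST replicates 1 to 3, and 64.6%, 39.5% and 69.2% of it in DMSO replicates 1 to 3. The denominators thus differed between DMSO libraries, and the part of this in the smaller count was not tested.

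Genes that assemble or accompany complex I were counted in the same edgeR fit, against the same 19.0% higher and 21.8% lower over all genes. Of 12 other complex I assembly factors 6 were called higher and 1 lower, with a median log2 fold change of 0.46. TMEM126B, which works with NDUFAF1 on the membrane arm, stood at 86.6, 85.7 and 75.7 CPM in beta-ST libraries and at 39.3, 32.7 and 24.2 CPM in DMSO libraries (log2 fold change 1.37, SE 0.18, edgeR adjusted p = 0.000793). TMEM242 rose by 0.86 and SFXN4 by 0.59 on the log2 scale. ACAD9, another partner of NDUFAF1, fell to 78.9 ± 3.28 CPM in beta-ST against 111 ± 8.25 CPM in DMSO libraries (log2 fold change −0.49, edgeR adjusted p = 0.0101). Partners in 1 assembly complex were therefore called in opposite directions.

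Of 12 tested genes of iron-sulfur cluster assembly, which supplies the clusters of the peripheral arm, 5 were called higher and 2 lower. BOLA3 rose by 1.07, NFU1 by 1.19 and HSCB by 1.39 on the log2 scale, and the late-acting NFU1 and BOLA3 deliver clusters to complex I. NFS1, the cysteine desulfurase that starts the pathway, fell by 0.47, and GLRX5 fell by 0.66. Neither CHCHD4 nor AIFM1, which import the cysteine-rich subunits, was called, with log2 fold changes of 0.03 (edgeR adjusted p = 0.852) and 0.07 (adjusted p = 0.608).

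The other complexes of the chain were counted for comparison. Of 9 complex III genes 5 were called higher and 0 lower, with a median log2 fold change of 0.62, among them UQCRB (1.68), UQCRQ (1.64) and UQCRH (1.17). Of 11 complex IV genes 7 were called higher and 0 lower, with a median of 1.22, among them COX6C (1.34), COX7B (1.49) and COX7A2 (2.08). Of 7 complex II genes 2 were called higher and 1 lower, with SDHD, a membrane anchor, at 1.60, SDHB at 0.37 and SDHA, the flavoprotein, at −0.37. Other small subunits of complexes III and IV were not called, with values far apart. They were UQCR11 (−0.12), UQCR10 (0.40), COX5A (−0.19), COX7A2L (0.29), COX6B1 (0.91, edgeR adjusted p = 0.053) and COX8A (1.29, adjusted p = 0.096). Leaving out DMSO replicate 2 gave 0.57 for COX6B1 and 0.80 for COX8A. Both were then called higher, as was COX7A2L, while UQCR11 and COX5A were called lower. Without DMSO replicate 2, complex III counted 6 higher and 2 lower with a median of 0.42, and complex IV 10 higher and 1 lower with a median of 0.84. Complex II then counted 4 higher and 1 lower. Calls also rose over all genes in that fit, to 26.4% higher and 30.3% lower. The DMSO replicate 2 library lay low in these lists too, with a mean log2 difference from the DMSO mean of −0.35 for complex III and −0.65 for complex IV.

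**Figure D5:**
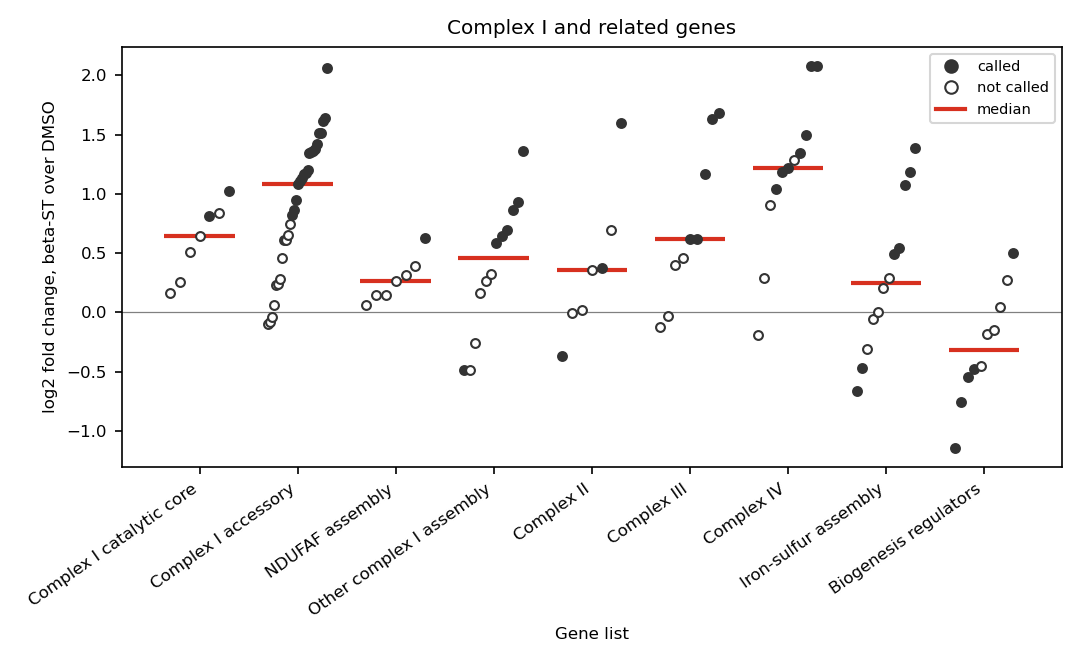
Log2 fold change of beta-ST over DMSO for complex I genes and related lists. Each point is a gene, filled where called in edgeR, and the vertical axis is the log2 fold change. Roles are by function, red bars are medians, and the accessory subunits and complex IV lie highest, with medians of 1.09 and 1.22, and the regulators lie mostly below 0, with a median of −0.31.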

How the data were processed

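RNA of 6 SU-DHL-8 libraries was sequenced, 3 with beta-sitosterol and 3 with DMSO. RNA was isolated with TRIzol, per the labels' protocols. The authors deposited a table of raw read counts for each gene and a table of TPM, in which each value equals the count divided by a constant of the gene and a constant of the library. Per the submitters' processing notes the tools were StringTie 2.2.1, featureCounts 2.0.1, STAR 2.7.10 and fastp 0.23.2 and the build GRCh38, without roles. The sources used here do not give the annotation, strand use or treatment of multi-mapping reads.

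Of 65807 rows, 61 repeats of a symbol were dropped, 2 of them with counts, which left 65746 genes, 47323 at 0 in all libraries. A value of 0 in these tables can be a failed match, so no absence is read from a gene listed at 0. The genes of complex V were listed at 0, no row was matched to the mitochondrially encoded subunits, and neither is analysed here.

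Counts were tested in R 4.3.3 with edgeR 4.0.16 (TMM, filterByExpr, glmQLFit and glmQLFTest, two-sided, treatment as the only term), with Benjamini-Hochberg adjustment over 11525 genes and a threshold of 0.05. Standard errors were obtained by dividing the size of each log2 fold change by the root of its F value. CPM are TMM-scaled, and log2 CPM used a prior count of 2. Alternatives used limma 3.58.1, DESeq2 1.42.0 and a lowess trend with gene length (span 0.3). The length was recovered from the ratio of count to TPM and scaled to exon length in GENCODE v29. On simulated data of 11525 genes the test recovered 71% of 2-fold and 95% of 4-fold changes, and 2.92% of calls were false. The simulated counts were drawn independently for each gene, with no deviating library and no trend with length. These shares may therefore not hold for the real libraries.

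The complex I genes, the lists and the tests were chosen with earlier results of these data known. Genes given in every library were the 8 largest rises, genes called lower, genes of the catalytic core, the assembly genes, the 3 with highest TPM and those whose call differed without DMSO replicate 2. All others were named by log2 fold change, with levels added after they were seen for NDUFA12, NDUFS4, NDUFV3, NDUFB7, NDUFB10 and NDUFC1, and of each related list up to 3 called genes by smallest p. Other genes of related lists were chosen after their values were seen. The leave-out of same-strand overlaps and the length trend combined with 5 libraries were added after the data were seen. RefSeq promoters matched 38 of the 45 genes. For 1 of the 45 genes the values are not reported here, although it enters every count and median.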

Additional observations from a re-analysis of the deposited data

How the results depend on the processing

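Leaving out 1 library at a time gave 18 to 29 complex I genes called higher, 3 to 7 core-named genes, 15 to 20 accessory genes and 0 to 2 assembly genes. Of all genes, 3094 to 6640 were called higher or lower (4697 with 6 libraries). Among these fits, the share of all genes called higher was counted only without DMSO replicate 2, at 26.4%. Of the 23 called genes 18 kept their call whichever library was left out, and 0 changed sign in any alternative. On log2(TPM + 1) and log2(TPM + 0.1) the counts called higher were 9 and 9 complex I genes, 1 and 1 core-named, 8 and 8 accessory and 0 and 0 assembly. Called higher or lower were 14 and 13 in the related lists (34 in the main test) and 2939 and 2935 of all genes. The cause of these lower counts was not tested. Genes called lower numbered 1 with the length trend removed, 1 without DMSO replicate 2 and 2 with both, where core-named genes came to 8 and assembly genes to 2. Counting the catalytic core alone gave 2. Whether the replicate numbers pair the libraries is not given by the labels, and the values do not settle it. Deviations from group means correlated at 0.039, 0.101 and 0.154 between same-numbered libraries. These were low, although each library correlated best with its own number, a hint from the data and not the design. The replicate block called 26 complex I genes higher and 0 lower, and 4743 of all genes higher or lower. RLE factors, library totals, limma-voom and a filter of 1 CPM in 3 libraries each called 23 complex I genes higher. Of all genes they called 4655, 4666, 4622 and 4415 in that order, higher or lower. DESeq2 and no filter each called 26 complex I genes higher, with 5076 and 4945 of all genes called higher or lower.

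Signs reversed for uncalled genes only. Over the fits that leave out 1 library, the log2 fold change went from −0.0041 (DMSO replicate 2 left out) to 0.62 for NDUFA13, −0.097 (likewise) to 0.51 for NDUFA9, −0.24 (likewise) to 0.30 for NDUFAB1, −0.16 to 0.14 (likewise) for NDUFB10 and −0.27 (likewise) to 0.23 for NDUFB7. NDUFB10 was at 0.015 without beta-ST replicate 1, and NDUFB7 at 0.23 without DMSO replicate 3. With the length trend also removed, 5 libraries gave −0.11 for NDUFA13, −0.061 for NDUFA9 and −0.39 for NDUFAB1, and with the trend alone removed NDUFAB1 was at −0.13. On log2(TPM + 1) and log2(TPM + 0.1), NDUFA10 was at −0.019 and −0.019, NDUFAF7 at −0.086 and −0.096, NDUFAF5 at −0.10 and −0.11, NDUFAB1 at −0.10 and −0.10 and NDUFAF6 at −0.18 and −0.20. With 3 libraries a group, a miss of the threshold is weak evidence, and counts limit NDUFA7 and NDUFV2 most.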
